A study of Homo sapiens with 9 samples.

Results

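Lysosome and autophagy genes were described in H1299 cells, an established human lung cancer line, with and without an intact BCKDK gene. The genes were chosen by symbol from the lysosomal and autophagic machinery, and all 45 were found among the 58735 genes of the expression table. They comprised 13 hydrolases, 2 lumenal cofactors, 3 lysosomal membrane proteins, 2 transcription factors, 7 proton pump subunits and 18 autophagy genes. RNA was sequenced from 3 groups of 3 libraries each. KO1 and KO2 were monoclonal BCKDK knockout lines, made by CRISPR editing and limiting dilution. Vector cells had been transduced with the lentiCRISPR v2 plasmid, carried a wild-type genotype label and were not described as a clone. No drug treatment or time point was given for any group. Each knockout line is 1 clone, so loss of BCKDK and the cell that founded the clone cannot be told apart within a comparison. The labels do not say whether the clones were founded independently or how the Vector cells were passaged beside them, so for changes that both clones show against Vector, loss of BCKDK and a difference in origin of the cells cannot be told apart either. Nothing in the labels tells whether a group's 3 libraries stem from different cultures, and the p-values therefore measure only the spread between these libraries. BCKDK encodes the kinase that phosphorylates and restrains the branched-chain ketoacid dehydrogenase complex, and the series title sets it in a study of glycolysis and trametinib resistance in lung cancer.

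Lysosomes are acidic organelles in which hydrolases break down proteins, lipids, glycans and nucleic acids. The V-ATPase, a proton pump built from a membrane V0 sector and a cytosolic V1 sector, keeps the lumen acidic. Autophagy delivers cytoplasm to the lysosome: the ULK1 complex starts the process, the Beclin 1 lipid kinase complex and the WIPI proteins mark the forming membrane, and a pair of conjugation systems attach LC3 and GABARAP proteins to it. TFEB and TFE3 are transcription factors that can raise many lysosomal genes together through a promoter element with the core CACGTG, known as the CLEAR motif.

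All values are FPKM (fragments per kilobase of exon, scaled to the depth of the library). Differences were taken between log2(FPKM + 1) values, so the added 1 shrinks those of genes at low levels. A gene was called changed where limma's moderated test, fitted over the 16426 genes averaging 0.5 FPKM or more, gave a Benjamini-Hochberg adjusted p under 0.05. Of the 45 genes 44 passed that filter, and GABARAP did not. The libraries held between 16002212 and 17090445 assigned reads. BCKDK, the targeted gene, had 1.91, 2.06 and 1.67 FPKM in KO1, 0.628, 0.576 and 0.287 FPKM in KO2, and 13.7, 12.9 and 17.5 FPKM in Vector. Every knockout library lay below every Vector library for BCKDK. VIM lay between 454 and 817 FPKM and KRT18 between 53.2 and 359 FPKM over the 9 libraries, whereas EPCAM, CDH1, NKX2-1, SFTPB and SFTPC, which mark lung epithelium, did not exceed 0.169 FPKM in any library. KRT18 averaged 331 ± 24.3 FPKM in KO1, 92.2 ± 9.26 FPKM in KO2 and 63.2 ± 9.19 FPKM in Vector (SD, n = 3 each), so this keratin moved with the clone, and its part in the results was not tested. All 10 markers of other cell types were under 1 FPKM in every library. In Vector and in KO2, replicate 3 differed from replicates 1 and 2, with a chi-square per degree of freedom of 44.3 to 52.6 in their pairs, against 2.44 to 6.84 in all other pairs within a group. Each of these 2 libraries, which stood apart, was the highest or the lowest of its group for 41 of the 45 genes. The other libraries were so for 15 to 34 genes, and in a group of 3 libraries 2 are at an end for every gene. In bulk RNA, fewer cells expressing a gene and less RNA per cell cannot be told apart.

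Promoters came from a set of 35116 RefSeq windows (GRCh38.p14), running from 250 bases before to 50 bases after the annotated start. The set held 35 of the 45 genes. The 10 genes without an entry in it were ASAH1, ATP6V1A, ATP6V1B2, ATP6V1C1, ATP6V1H, CTSB, HEXA, LAMP2, PSAP and UVRAG, and the results by motif leave them out. A missing entry does not mean that RefSeq lacks a promoter for the gene. The 6-base core CACGTG, which reads the same on both strands, was present in 8 of the 35 genes, and in 7.26% of the 35116 promoters. The 7-base form TCACGTG, searched on both strands, was found in the same 8 genes and in 3.71% of all promoters, and each match to it contains the 6-base core. The palindrome TCACGTGA was found in 6 genes and in 0.98% of all promoters, with ATG3, ATP6V0D1, CTSA, GAA, LAMP1 and MCOLN1 as the 6 genes. These percentages count single promoters of all genes, expressed or not, whereas a gene counts if any of its promoters matches, so the measures are unlike. Counted by gene, 1258 fitted genes had CACGTG and 8599 with a promoter did not. For TCACGTGA these counts were 226 and 9631. The 8 stretches that carry the core are shown because these genes are set beside the others in the results. Each runs 5′ to 3′ on the strand of its gene, with 20 bases on either side, and capitals mark CACGTG. The strands are plus for CTSA, GAA, LAMP1 and MCOLN1 and minus for ATG3, ATP6V0D1, CTSD and NEU1.
ATG3 (chr3:112561932-112562000): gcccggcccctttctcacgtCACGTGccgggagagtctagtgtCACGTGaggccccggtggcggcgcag
ATP6V0D1 (chr16:67481191-67481236): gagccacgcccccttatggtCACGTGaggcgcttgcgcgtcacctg
CTSA (chr20:45891273-45891335): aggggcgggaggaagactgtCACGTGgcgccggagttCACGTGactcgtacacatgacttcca
CTSD (chr11:1763949-1763994): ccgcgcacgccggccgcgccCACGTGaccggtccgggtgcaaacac
GAA (chr17:80101485-80101575): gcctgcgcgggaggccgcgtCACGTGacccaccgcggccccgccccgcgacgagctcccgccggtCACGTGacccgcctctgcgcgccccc
LAMP1 (chr13:113297027-113297263): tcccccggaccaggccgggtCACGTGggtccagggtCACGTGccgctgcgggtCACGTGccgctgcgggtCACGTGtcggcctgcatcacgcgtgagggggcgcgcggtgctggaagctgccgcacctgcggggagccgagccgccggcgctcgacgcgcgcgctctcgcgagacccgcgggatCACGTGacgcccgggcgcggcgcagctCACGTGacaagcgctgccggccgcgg
MCOLN1 (chr19:7522563-7522635): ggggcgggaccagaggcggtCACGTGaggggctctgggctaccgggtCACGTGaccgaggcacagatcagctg
NEU1 (chr6:31862922-31862967): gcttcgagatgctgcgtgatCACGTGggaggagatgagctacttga

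LAMP1 held 6 cores, ATG3, CTSA, GAA and MCOLN1 held 2 each, and ATP6V0D1, CTSD and NEU1 held 1 each. A match describes letters in this window only and was not taken as a bound site.

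In KO1 the lysosome and autophagy genes moved in both directions, with more higher than lower. Of the 44 genes fitted, 15 rose and 7 fell against Vector, which is 50%, beside 34.1% of all fitted genes (17.4% higher and 16.7% lower). Their median difference was 0.16, against 0.01 over all fitted genes. In KO2 6 genes rose and 9 fell against Vector, which is 34.1%, beside 27.9% of all fitted genes (12.9% higher and 15% lower), with a median of 0.06 against 0.00 over all fitted genes. When only genes averaging at least 2 FPKM were fitted, 38.2% of them were called in KO1 and 31.5% in KO2. Of the 45 genes, 21 and 15 were called in that fit. KO1 and KO2 were compared with the same 3 Vector libraries, so these counts are not independent of each other. Without Vector replicate 3 and KO2 replicate 3, 20 genes rose and 13 fell in KO1, 16 rose and 11 fell in KO2, and the share of all fitted genes called was 56.8% in KO1 and 49.5% in KO2. Leaving out Vector replicate 3 alone raised the number called to 29 in KO1 and 23 in KO2, and the share of all fitted genes to 44.8% and 39.8%. When FPKM were scaled to equal sums, 11 genes rose and 8 fell in KO1, beside 32.6% of all fitted genes called.

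**Figure D1:**
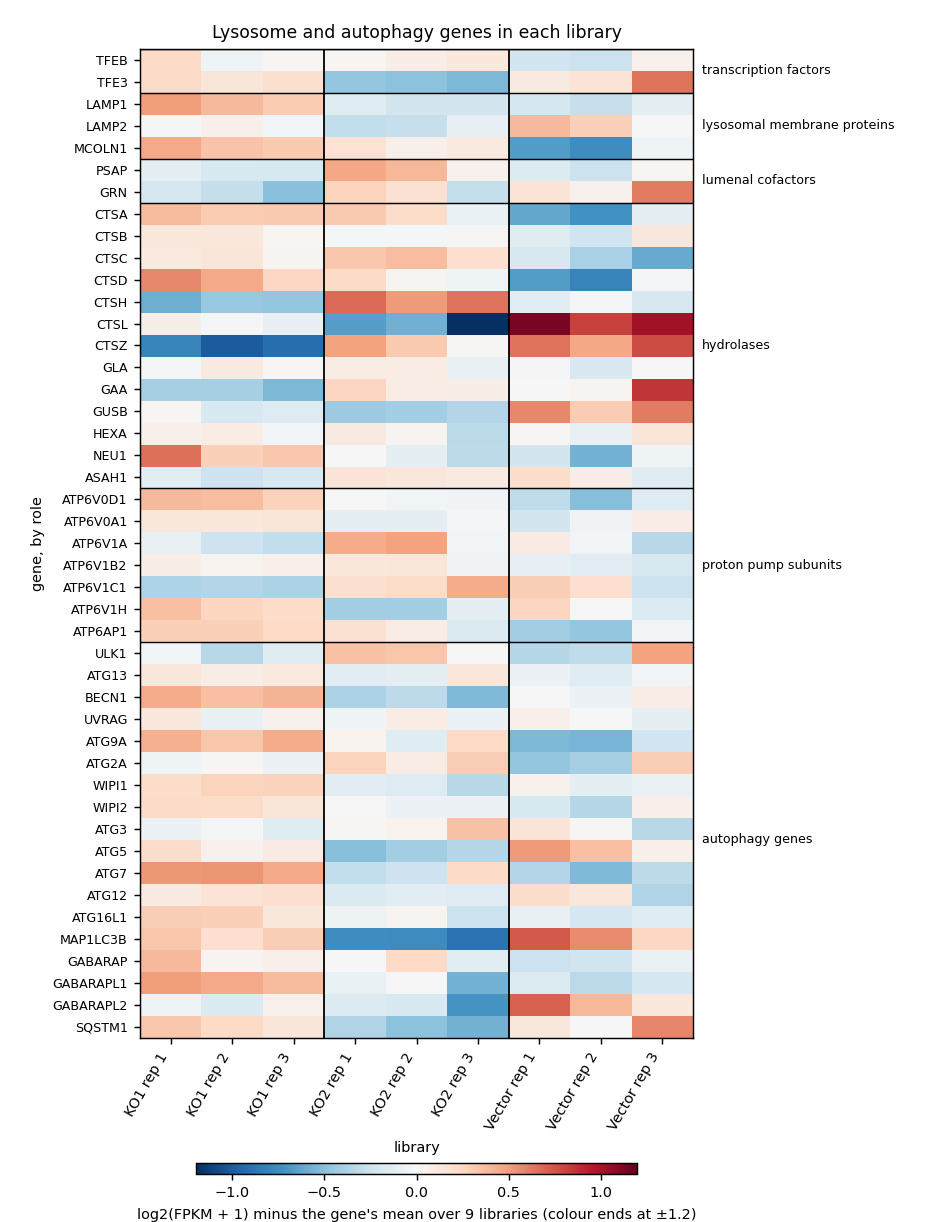
Log2(FPKM + 1) of each of the 45 genes in each of the 9 libraries, minus the gene's mean over the 9, with red above and blue below that mean and genes grouped by role. CTSZ is low in KO1 alone, MAP1LC3B and SQSTM1 are low in KO2, and Vector replicate 3 differs from the other Vector libraries for GAA and TFE3.

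Some genes share exon sequence with a neighbour, by 52.7% of the exon length for CTSD, 38.8% for ATG9A, 28.1% for WIPI1, 22% for SQSTM1, 18.1% for ATG7 and 17.1% for BECN1, and the assignment of those reads is uncertain. The heat map of single libraries shows that the clones were not alike: blocks of autophagy genes are red in the KO1 columns and blue in the KO2 columns. Tested directly, 5 genes were higher and 14 lower in KO2 than in KO1, which is 43.2%, beside 30.9% of all fitted genes (14.5% higher and 16.4% lower). The median difference between the clones was -0.23, against -0.02 over all fitted genes. With FPKM scaled to equal sums the split was 7 higher and 10 lower, beside 28.8% of all fitted genes called. Without Vector replicate 3 and KO2 replicate 3 it was 11 higher and 22 lower, beside 47.7% of all fitted genes called.

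Set against Vector, 4 genes rose in both clones (ATG9A, CTSA, CTSC and MCOLN1) and 2 fell in both (CTSL and GUSB). BECN1 rose in KO1 and fell in KO2, and CTSH fell in KO1 and rose in KO2. In KO1 alone 10 genes passed as higher (ATG16L1, ATG7, ATP6AP1, ATP6V0D1, CTSD, GABARAPL1, LAMP1, NEU1, WIPI1 and WIPI2) and 4 as lower (ATP6V1C1, CTSZ, GAA and GRN). In KO2 alone PSAP passed as higher and 6 genes as lower (ATG5, GABARAPL2, LAMP2, MAP1LC3B, SQSTM1 and TFE3). The remaining 15 fitted genes passed in neither clone, and passing in 1 clone does not show a difference between the clones. That difference passed its own test for ATG16L1, ATG7, ATP6V0D1, ATP6V1C1, CTSZ, GABARAPL1, LAMP1, NEU1 and WIPI1 among the KO1 genes, and for ATG5, MAP1LC3B, PSAP, SQSTM1 and TFE3 among the KO2 genes. It also passed for BECN1, CTSH and CTSL, and for ATP6V1A and ATP6V1H, which passed against Vector in neither clone.

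**Figure D2:**
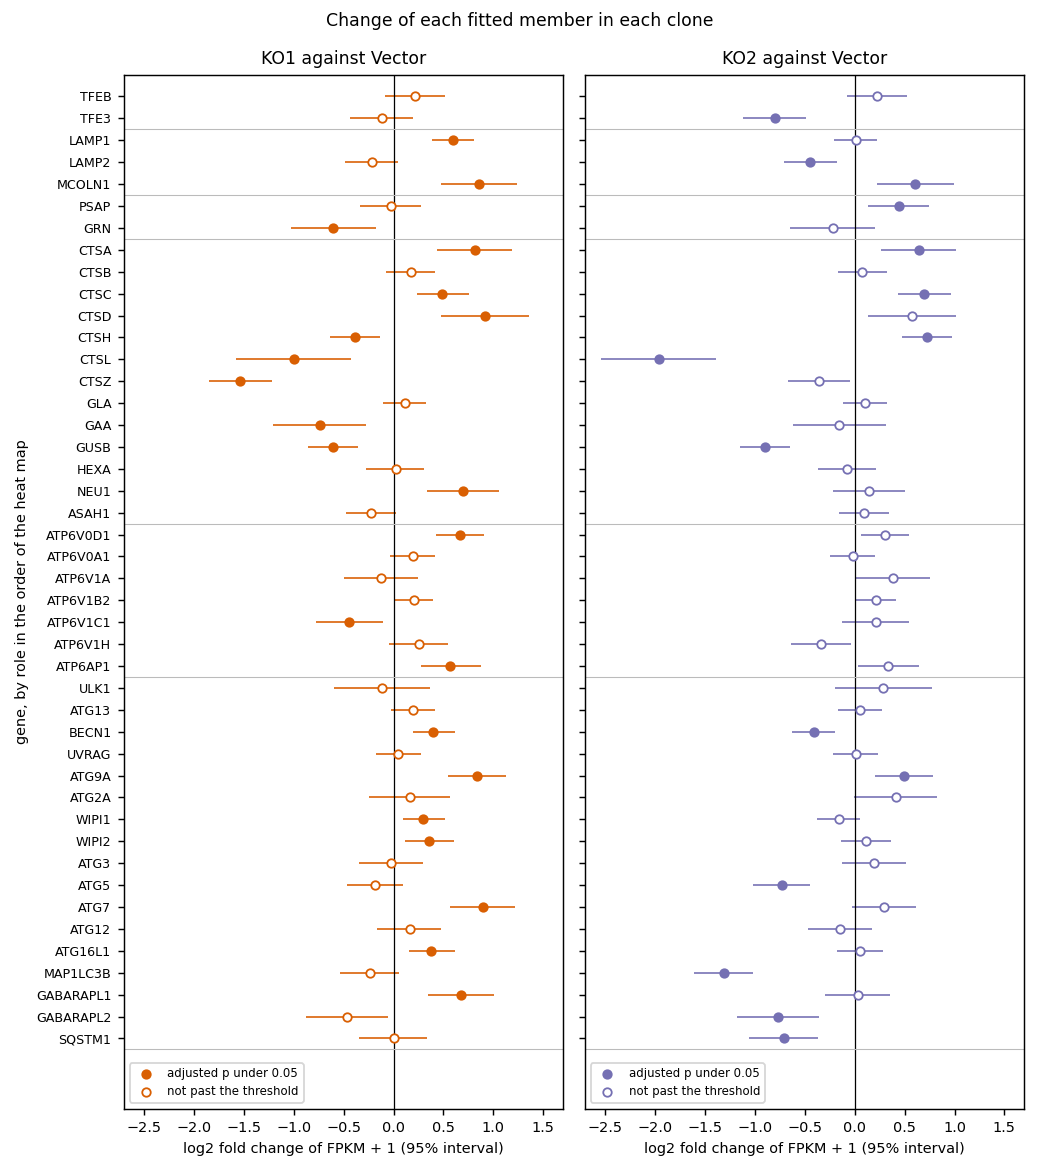
Log2 fold change of FPKM + 1 with its 95% interval for the 44 fitted genes, KO1 against Vector on the left and KO2 against Vector on the right, with filled points at adjusted p under 0.05. CTSL lies lowest in KO2, at -1.96, and CTSZ lowest in KO1, at -1.54, while the highest values are 0.92 for CTSD in KO1 and 0.72 for CTSH in KO2.

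The plot of changes with their intervals shows the spread of the differences within every role. The genes are taken up by role below, from the transcription factors to the autophagy machinery.

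Of the 2 transcription factors, TFE3 fell in KO2 and neither passed in KO1, by limma's adjusted or unadjusted p or by limma-voom. TFE3 (chrX:49028726-49043486, minus strand), a relative of TFEB that moves to the nucleus when nutrients are scarce, had 15.7, 14.7 and 15.2 FPKM in KO1, 9.33, 9.13 and 8.81 FPKM in KO2, and 14.3, 14.9 and 21.3 FPKM in Vector. The KO2 libraries lay below all KO1 and all Vector libraries, and KO1 lay within the Vector range. The difference in KO2 was -0.80 (SE 0.14, adjusted p = 0.00294), and KO2 was also below KO1, with a difference of -0.68 (SE 0.14, adjusted p = 0.0059). Genes within 5 Mb of TFE3 had a median difference of -0.41 in KO2, and with their median subtracted from each library before the fit, which is called the difference beyond the neighbours, TFE3 differed by -0.45. TFEB (chr6:41683978-41736259, minus strand), which controls the CLEAR genes, was lowly expressed, with 0.854, 0.523 and 0.597 FPKM in KO1, 0.601, 0.662 and 0.722 FPKM in KO2, and 0.344, 0.314 and 0.635 FPKM in Vector. The groups overlapped, each value rested on 30 to 77 reads, and the difference was 0.21 (95% interval -0.09 to 0.52) in KO1 and 0.22 (95% interval -0.08 to 0.52) in KO2. TFEB was called higher in KO2 with the neighbours' median subtracted, and with library weights, which called 61.3% of all fitted genes there. With library weights 1 of the 2 factors was also called higher in KO1.

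All 3 lysosomal membrane proteins passed in 1 clone or in both, in different directions. MCOLN1 (chr19:7522626-7534009, plus strand), the TRPML1 channel that releases calcium from the lysosome, had 9.33, 8.55 and 8.35 FPKM in KO1, 7.47, 6.83 and 7.15 FPKM in KO2, and 3.72, 3.48 and 6.27 FPKM in Vector. Both clones lay above every Vector library, of which replicate 3 was the highest. MCOLN1 rose in KO1 by 0.86 (SE 0.17, adjusted p = 0.00433) and in KO2 by 0.60 (SE 0.17, adjusted p = 0.0263). The KO2 call was lost when any 1 of Vector replicates 1 and 2 or of the KO2 libraries was left out, with an adjusted p of up to 0.0925 without Vector replicate 1.

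LAMP1 (chr13:113297241-113323672, plus strand), an abundant glycoprotein of the lysosomal membrane, had 42.3, 39.1 and 37 FPKM in KO1, 26.7, 25.4 and 25.3 FPKM in KO2, and 25.5, 24.3 and 27.3 FPKM in Vector. KO1 stood above all other libraries, and KO2 overlapped Vector. LAMP1 rose in KO1 by 0.60 (SE 0.09, adjusted p = 0.0013), and KO2 was below KO1, with a difference of -0.60 (SE 0.09, adjusted p = 0.00158), while KO2 against Vector gave 0.01 (95% interval -0.21 to 0.22). The fitted genes within 5 Mb of LAMP1 had a median difference of 0.57 in KO1, nearly that of LAMP1. Beyond these neighbours LAMP1 differed by 0.02 in KO1 (adjusted p = 0.896) and by -0.04 between the clones (adjusted p = 0.759), so both calls ended. LAMP2 (chrX:120427827-120469365, minus strand), the related protein needed for fusion of autophagosomes with lysosomes, had 14.6, 15.6 and 14.5 FPKM in KO1, 11.9, 12.1 and 13.8 FPKM in KO2, and 19.8, 18.3 and 14.9 FPKM in Vector. KO2 lay below both other groups, and KO1 reached into the Vector range. LAMP2 fell in KO2 by 0.45 on the log2 scale (SE 0.12, adjusted p = 0.0199), a call lost without Vector replicate 1 or 2 or without KO2 replicate 1 or 2, at an adjusted p of up to 0.0699.

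The 2 lumenal cofactors each passed in 1 clone. PSAP (chr10:71816298-71851375, minus strand), which is cut into the saposins that help break down sphingolipids, was the most abundant of the 45 genes, with 160, 153 and 152 FPKM in KO1, 240, 229 and 180 FPKM in KO2, and 155, 145 and 177 FPKM in Vector. KO2 lay above every KO1 and Vector library. PSAP rose in KO2 by 0.44 (SE 0.14, adjusted p = 0.039) and was higher in KO2 than in KO1 by 0.47 (SE 0.14, adjusted p = 0.0268). Its neighbours within 5 Mb had a median of -0.25 in KO2, and the difference beyond them was 0.70. The KO2 call held in only 2 of the 9 fits that left out 1 library, those without Vector replicate 3 or KO2 replicate 3, and reached an adjusted p of 0.129 without KO2 replicate 1. The call between the clones was lost without any 1 KO1 library or without KO2 replicate 1 or 2, at an adjusted p of up to 0.0941. GRN (chr17:44345086-44353102, plus strand), which encodes progranulin, a secreted protein that also acts in lysosomes, had 27.4, 25.8 and 22.2 FPKM in KO1, 38.5, 36.2 and 25.9 FPKM in KO2, and 35.8, 32.9 and 49.2 FPKM in Vector. All KO1 libraries lay below all Vector libraries, and KO2 overlapped both. GRN fell in KO1 by 0.61 on the log2 scale (SE 0.19, adjusted p = 0.0338), a call lost without Vector replicate 1 or 3 or any 1 KO1 library, at an adjusted p of up to 0.114.

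Hydrolases moved in both directions. In KO1 4 of the 13 rose and 5 fell, which is 69.2%, beside 34.1% of all fitted genes, with a median of 0.02. In KO2 3 rose and 2 fell, which is 38.5%, beside 27.9%, with a median of 0.09. In the fit without Vector replicate 3 and KO2 replicate 3, 5 hydrolases rose and 6 fell in KO1, and 5 rose and 2 fell in KO2. Of all fitted genes that fit called 56.8% in KO1 and 49.5% in KO2. Cathepsins, the lysosomal proteases, were among the changes of either sign. CTSA (chr20:45890144-45898820, plus strand), a carboxypeptidase that also protects NEU1, had 40.4, 38.4 and 38.6 FPKM in KO1, 38.7, 36 and 29.2 FPKM in KO2, and 19.8, 18.3 and 28.4 FPKM in Vector. Both clones lay above Vector, although KO2 replicate 3 and Vector replicate 3 were close. CTSA rose in KO1 by 0.82 (SE 0.17, adjusted p = 0.0052) and in KO2 by 0.64 (SE 0.17, adjusted p = 0.0198), and beyond its neighbours the KO1 call was lost, at an adjusted p of 0.066. The KO2 call was lost without Vector replicate 1 or 2 or without KO2 replicate 1 or 2, at an adjusted p of up to 0.0709. In CTSA 28.5% of the exon length is shared with genes of the opposite strand, among them NEURL2 and PLTP, and the strand setting of the counting is not given in the sources used here.

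CTSC (chr11:88293592-88337787, minus strand), the dipeptidyl peptidase that activates granule proteases in blood cells, had 11.3, 11.6 and 10.6 FPKM in KO1, 13.2, 13.7 and 12.1 FPKM in KO2, and 8.92, 7.66 and 6.48 FPKM in Vector. The 3 groups did not overlap, with KO2 highest and Vector lowest. CTSC rose in KO1 by 0.49 (SE 0.12, adjusted p = 0.0109) and in KO2 by 0.69 (SE 0.12, adjusted p = 0.00249), and the median of genes nearby was -0.09 in KO1 and 0.05 in KO2. CTSD (chr11:1752752-1764573, minus strand), the main aspartic protease of lysosomes, had 24, 22 and 18.9 FPKM in KO1, 18.7, 16.2 and 15.2 FPKM in KO2, and 9.54, 8.64 and 15.6 FPKM in Vector. KO1 lay above all Vector libraries, and KO2 overlapped Vector through Vector replicate 3. CTSD rose in KO1 by 0.92 (SE 0.20, adjusted p = 0.00661). In KO2 the difference was 0.57 (95% interval 0.13 to 1.01), with an adjusted p of 0.0585, and without Vector replicate 3 and KO2 replicate 3 it was 0.87, with an adjusted p of 0.00128. NEU1 (chr6:31857659-31862906, minus strand), a sialidase, had 26.8, 20.5 and 21 FPKM in KO1, 16.6, 15.4 and 13.2 FPKM in KO2, and 14.1, 10.9 and 16 FPKM in Vector. KO1 stood above the other groups, and KO2 overlapped Vector. NEU1 rose in KO1 by 0.70 (SE 0.16, adjusted p = 0.00901) and was lower in KO2 than in KO1, with a difference of -0.56 (SE 0.16, adjusted p = 0.0257). The call between the clones was lost without KO1 replicate 1 or 3 or without KO2 replicate 2 or 3, at an adjusted p of up to 0.102.

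CTSL (chr9:87725519-87731393, plus strand), a cysteine protease of broad specificity, fell most in KO2. It had 15.3, 14.2 and 13.5 FPKM in KO1, 8.78, 9.39 and 3.81 FPKM in KO2, and 33.1, 26.4 and 30.1 FPKM in Vector. The groups did not overlap, with KO2 lowest and Vector highest, and KO2 replicate 3 was far below the other KO2 libraries. The difference was -1.0 (SE 0.26, adjusted p = 0.0153) in KO1, -1.96 (SE 0.26, adjusted p = 0.000617) in KO2 and -0.96 (SE 0.26, adjusted p = 0.0198) between the clones. The KO1 call was lost without Vector replicate 1 (adjusted p = 0.0535), and the call between the clones without KO1 replicate 1 or 2, at an adjusted p of up to 0.0659. GUSB (chr7:65960684-65982314, minus strand), beta-glucuronidase, had 14.5, 12.5 and 12.7 FPKM in KO1, 10.3, 10.5 and 11 FPKM in KO2, and 21.8, 17.9 and 22.6 FPKM in Vector. Both clones lay below Vector. GUSB differed by -0.61 (SE 0.11, adjusted p = 0.00305) in KO1 and -0.90 (SE 0.11, adjusted p = 0.000464) in KO2. Beyond its neighbours the KO1 difference was -0.32, with an adjusted p of 0.0779. CTSL and GUSB have pseudogene copies, so some of their reads may be assigned with uncertainty.

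CTSZ and CTSH separated the clones. CTSZ (chr20:58995185-59007247, minus strand), a carboxypeptidase of the cathepsin family, had 2.49, 2.05 and 2.26 FPKM in KO1, 7.53, 6.57 and 5.18 FPKM in KO2, and 8.56, 7.42 and 9.52 FPKM in Vector. KO1 lay below all other libraries, and KO2 overlapped Vector. The difference was -1.54 (SE 0.14, adjusted p = 4.91e-05) in KO1 and 1.17 (SE 0.14, adjusted p = 0.000315) between the clones. Genes within 5 Mb of CTSZ had a median of 0.54 in KO1, opposite in sign to CTSZ itself, and the difference beyond them was -2.12. CTSH (chr15:78921058-78949574, minus strand), an aminopeptidase of the same family, was low throughout, with 0.17, 0.282 and 0.271 FPKM in KO1, 1.81, 1.5 and 1.75 FPKM in KO2, and 0.608, 0.732 and 0.541 FPKM in Vector. These values rest on 16 to 188 reads, and the groups did not overlap, with KO2 highest and KO1 lowest. CTSH differed by -0.39 (SE 0.11, adjusted p = 0.0244) in KO1, 0.72 (SE 0.11, adjusted p = 0.00158) in KO2 and 1.11 (SE 0.11, adjusted p = 0.000127) between the clones. The KO1 call was lost without Vector replicate 1 or 2 or without any 1 KO1 library, at an adjusted p of up to 0.0878, and also beyond its neighbours, at an adjusted p of 0.0773.

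GAA (chr17:80101556-80119879, plus strand), the enzyme that degrades glycogen in lysosomes, had 12.7, 12.7 and 11.4 FPKM in KO1, 20.5, 18.2 and 18.1 FPKM in KO2, and 17.1, 17.5 and 31.7 FPKM in Vector. All KO1 libraries lay below all Vector libraries, of which replicate 3 stood well above replicates 1 and 2. GAA fell in KO1 by 0.74 on the log2 scale (SE 0.21, adjusted p = 0.0211), a call lost without any 1 KO1 library, at an adjusted p of up to 0.0704. The remaining 4 hydrolases passed in neither clone. CTSB, a cysteine protease, averaged 24 ± 1.04 FPKM in KO1, 22.3 ± 0.242 FPKM in KO2 and 21.3 ± 3.04 FPKM in Vector (SD, n = 3 each). ASAH1, acid ceramidase, averaged 3.06 ± 0.174 FPKM in KO1, 4.06 ± 0.0732 FPKM in KO2 and 3.79 ± 0.615 FPKM in Vector (SD, n = 3 each). GLA, which removes terminal galactose from glycolipids, and HEXA, a subunit of hexosaminidase A, overlapped in all 3 groups, with 5.53 to 7 FPKM for GLA and 1.7 to 2.73 FPKM for HEXA over the 9 libraries.

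**Figure D3:**
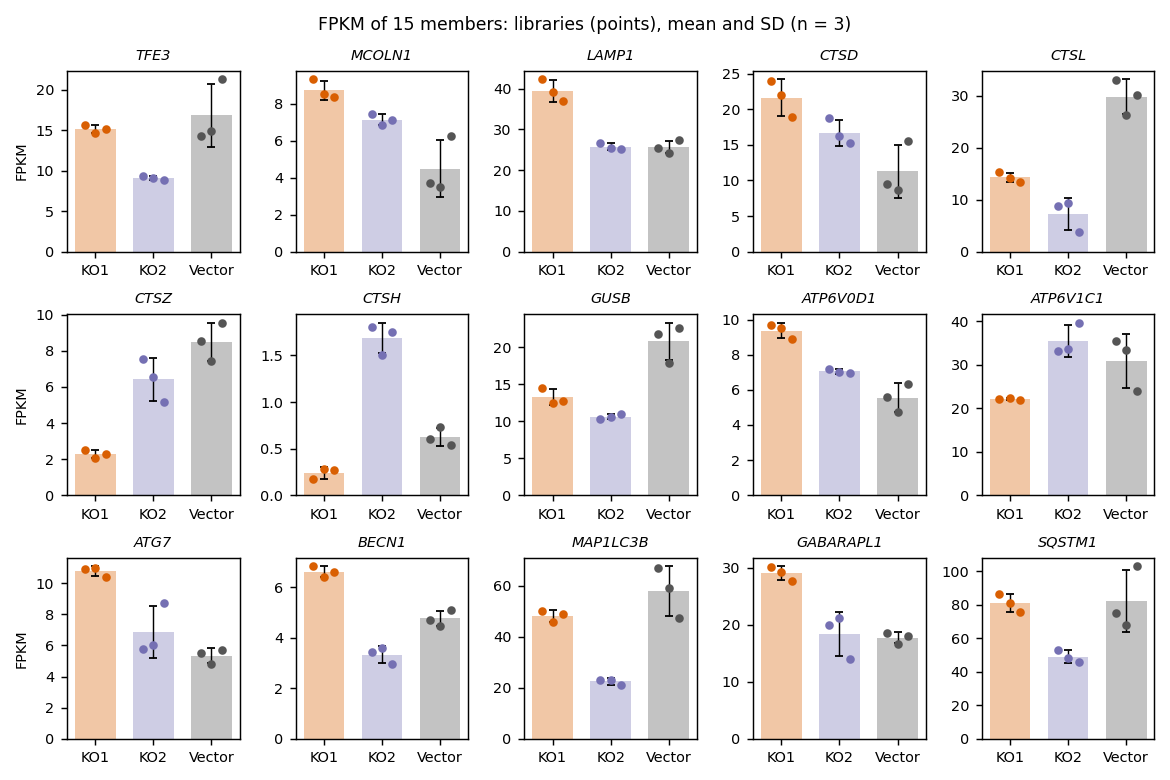
FPKM of 15 genes in KO1, KO2 and Vector, with points for single libraries, bars for the mean and lines for the SD (n = 3 libraries). LAMP1 and GABARAPL1 are high in KO1 alone, MAP1LC3B, SQSTM1 and TFE3 are low in KO2 alone, and CTSL and GUSB are lower in both clones than in Vector.

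Of the 7 proton pump subunits, 2 rose and 1 fell in KO1 (42.9%, beside 34.1% of all fitted genes), and none passed in KO2 (beside 27.9%). In KO2, limma gave 4 subunits higher and 1 lower at an unadjusted p under 0.05, and limma-voom on the reads called none. Without Vector replicate 3 and KO2 replicate 3, limma called 4 higher and 2 lower in KO1, and 4 higher and 1 lower in KO2. That fit also called more of all fitted genes, 56.8% in KO1 and 49.5% in KO2. With the neighbours' median subtracted, 4 were higher and none lower in KO1, beside 29.2% of all fitted genes called. The medians were 0.20 in KO1 and 0.21 in KO2. ATP6V0D1 (chr16:67438014-67481237, minus strand), the V0 subunit that couples the membrane ring to the stalk, had 9.71, 9.54 and 8.87 FPKM in KO1, 7.21, 7.01 and 6.95 FPKM in KO2, and 5.62, 4.73 and 6.34 FPKM in Vector. The groups did not overlap, with KO1 highest and Vector lowest. ATP6V0D1 rose in KO1 by 0.67 (SE 0.11, adjusted p = 0.00143), and KO2 was lower than KO1, with a difference of -0.36 (SE 0.11, adjusted p = 0.0289). The call between the clones was lost when any 1 KO1 or KO2 library was left out, at an adjusted p of up to 0.103, and beyond the neighbouring genes, at an adjusted p of 0.0516. In KO2 the difference from Vector was 0.30 (95% interval 0.06 to 0.54), with an adjusted p of 0.0619, and 0.40 without the 2 libraries that stood apart, with an adjusted p of 0.00767. ATP6AP1 (chrX:154428632-154436516, plus strand), an accessory subunit needed for assembly of the pump, had 19.7, 19.6 and 19 FPKM in KO1, 18.2, 17 and 14 FPKM in KO2, and 11.7, 11.3 and 15.5 FPKM in Vector. KO1 lay above all Vector libraries, and KO2 overlapped Vector only through the replicates numbered 3. ATP6AP1 rose in KO1 by 0.57 (SE 0.14, adjusted p = 0.0112). In KO2 the difference was 0.33 (95% interval 0.03 to 0.64), with an adjusted p of 0.1, and 0.57 without the libraries that stood apart (adjusted p = 0.000252).

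ATP6V1C1 (chr8:103021063-103073051, plus strand), a V1 stator subunit, had 22.1, 22.4 and 21.9 FPKM in KO1, 33.1, 33.7 and 39.7 FPKM in KO2, and 35.6, 33.4 and 23.9 FPKM in Vector. KO1 lay below all other libraries, and Vector replicate 3 was the closest to it. ATP6V1C1 differed by -0.45 (SE 0.15, adjusted p = 0.0432) in KO1 and 0.66 (SE 0.15, adjusted p = 0.00949) between the clones. Of the 9 fits that left out 1 library, the KO1 call held in those without Vector replicate 3 or KO2 replicate 3, and the adjusted p reached 0.136 without Vector replicate 1. Genes within 5 Mb had a median of -0.35 in KO1, and beyond them ATP6V1C1 differed by -0.07 in KO1 (adjusted p = 0.691) and by 0.30 between the clones (adjusted p = 0.0956), so both calls ended. ATP6V1A (chr3:113747019-113812056, plus strand), the V1 subunit that hydrolyses ATP, had 11.6, 10.3 and 9.9 FPKM in KO1, 17.3, 17.7 and 12.1 FPKM in KO2, and 13.4, 12.1 and 9.67 FPKM in Vector. KO2 lay above KO1 but overlapped Vector. ATP6V1A was higher in KO2 than in KO1 by 0.51 (SE 0.16, adjusted p = 0.0418), a call lost without Vector replicate 2, any 1 KO1 library or KO2 replicate 1 or 2, at an adjusted p of up to 0.136, and beyond its neighbours, at an adjusted p of 0.177. ATP6V1H, a V1 subunit that regulates the pump, averaged 17.8 ± 0.991 FPKM in KO1, 11.6 ± 1.49 FPKM in KO2 and 14.9 ± 2.39 FPKM in Vector (SD, n = 3 each), and was lower in KO2 than in KO1, with a difference of -0.59 (SE 0.13, adjusted p = 0.00921). ATP6V0A1, the a subunit of the proton channel, averaged 5.82 ± 0.0261 FPKM in KO1, 4.88 ± 0.23 FPKM in KO2 and 5 ± 0.64 FPKM in Vector (SD, n = 3 each). ATP6V1B2, the noncatalytic V1 B subunit, averaged 9.34 ± 0.116 FPKM in KO1, 9.46 ± 0.707 FPKM in KO2 and 8.01 ± 0.289 FPKM in Vector (SD, n = 3 each). Every KO1 library exceeded every Vector library for these last 2 subunits, and neither passed the test in KO1.

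Among the 17 autophagy genes fitted, the calls were all higher in KO1 and mostly lower in KO2, and only BECN1 passed in opposite directions. In KO1 7 rose and none fell, which is 41.2%, beside 34.1% of all fitted genes, with a median of 0.16. In KO2 1 rose and 5 fell, which is 35.3%, beside 27.9%, with a median of 0.03. Between the clones 8 were lower in KO2 than in KO1 and none higher, which is 47.1%, beside 30.9%, with a median of -0.33. At an unadjusted p under 0.05, limma had 1 gene lower in KO1 and none higher between the clones, and limma-voom called 1 lower in KO1 and none higher between the clones. With FPKM scaled to equal sums, 3 rose and none fell in KO1, beside 32.6% of all fitted genes called. Between the clones 7 were lower in that fit, beside 28.8%. Without Vector replicate 3 and KO2 replicate 3, 9 rose and 3 fell in KO1, and 5 rose and 6 fell in KO2. Between the clones 2 were then higher and 12 lower in KO2 than in KO1. Of all fitted genes 56.8% in KO1, 49.5% in KO2 and 47.7% between the clones were called without these libraries.

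Of the genes that start autophagy or build its membrane, BECN1 and ATG9A passed in both clones. BECN1 (chr17:42810134-42833350, minus strand), the scaffold of the autophagy lipid kinase complex, had 6.83, 6.4 and 6.61 FPKM in KO1, 3.43, 3.61 and 2.97 FPKM in KO2, and 4.71, 4.48 and 5.1 FPKM in Vector. The groups did not overlap, with KO1 highest and KO2 lowest. BECN1 differed by 0.40 (SE 0.10, adjusted p = 0.0107) in KO1, -0.41 (SE 0.10, adjusted p = 0.0117) in KO2 and -0.82 (SE 0.10, adjusted p = 0.000302) between the clones, and kept these calls whichever library was left out. The KO1 call was lost with FPKM scaled to equal sums (adjusted p = 0.0566), and the KO2 call when the libraries of KO2 and Vector were fitted alone (adjusted p = 0.0582). Its neighbours had a median of -0.10 in either clone. ATG9A (chr2:219219380-219229717, minus strand), the membrane protein that seeds autophagosomes, had 13.3, 12.4 and 13.5 FPKM in KO1, 10, 8.63 and 11.6 FPKM in KO2, and 6.32, 6.27 and 8.08 FPKM in Vector. Both clones lay above Vector, with KO1 highest. ATG9A rose in KO1 by 0.84 (SE 0.13, adjusted p = 0.00119) and in KO2 by 0.49 (SE 0.13, adjusted p = 0.021). The median of neighbouring genes was 0.46 in KO1 and 0.26 in KO2, and beyond them ATG9A differed by 0.40 in KO1 (adjusted p = 0.0239) and 0.15 in KO2 (adjusted p = 0.342). The KO2 call was also lost without Vector replicate 1 or 2 or without KO2 replicate 1 or 3, at an adjusted p of up to 0.0737.

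WIPI1 and WIPI2, which bind the lipid made by that kinase, averaged 9.7 ± 0.205 FPKM in KO1, 6.78 ± 0.57 FPKM in KO2 and 7.69 ± 0.566 FPKM in Vector (SD, n = 3 each) for WIPI1 and 15.4 ± 0.504 FPKM in KO1, 12.9 ± 0.417 FPKM in KO2 and 11.9 ± 1.81 FPKM in Vector (SD, n = 3 each) for WIPI2. Every KO1 library exceeded every other library for both genes. WIPI1 rose in KO1 by 0.30 (SE 0.10, adjusted p = 0.0354) and was lower in KO2 than in KO1, with a difference of -0.46 (SE 0.10, adjusted p = 0.00596), and WIPI2 rose in KO1 by 0.36 (SE 0.11, adjusted p = 0.0347). Most fits without 1 library lost these KO1 calls: WIPI1 kept its call without Vector replicate 1, Vector replicate 3 or KO2 replicate 3 only, and WIPI2 without Vector replicate 3 or KO2 replicate 3 only, with adjusted p of up to 0.116 and 0.122 without Vector replicate 2. Beyond their neighbours neither KO1 call held, with adjusted p of 0.545 for WIPI1 and 0.0581 for WIPI2, nor did the call between the clones for WIPI1, at an adjusted p of 0.0964. ULK1, the kinase that starts autophagy, averaged 7.43 ± 0.868 FPKM in KO1, 10.2 ± 1.51 FPKM in KO2 and 8.45 ± 3.26 FPKM in Vector (SD, n = 3 each). ATG13, its partner, averaged 17.5 ± 0.321 FPKM in KO1, 15.8 ± 1.73 FPKM in KO2 and 15.2 ± 0.608 FPKM in Vector (SD, n = 3 each). UVRAG, a Beclin 1 partner, averaged 4.83 ± 0.437 FPKM in KO1, 4.67 ± 0.335 FPKM in KO2 and 4.65 ± 0.339 FPKM in Vector (SD, n = 3 each). ATG2A, which transfers lipids to the growing membrane, averaged 7.87 ± 0.293 FPKM in KO1, 9.55 ± 0.784 FPKM in KO2 and 7.19 ± 2.53 FPKM in Vector (SD, n = 3 each). None of these 4 genes passed in any of the comparisons with all libraries. Without Vector replicate 3, ATG2A passed in KO1 (adjusted p = 0.0061), in KO2 (0.000755) and between the clones (0.03), and ULK1 in KO2 (0.0139) and between the clones (0.03).

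Of the conjugation genes, ATG7, ATG5 and ATG16L1 differed between the clones. ATG7 (chr3:11272309-11557665, plus strand), the enzyme that activates both ATG12 and the LC3 family, had 10.9, 11 and 10.4 FPKM in KO1, 5.78, 6.01 and 8.76 FPKM in KO2, and 5.52, 4.78 and 5.71 FPKM in Vector. Both clones lay above Vector, KO2 only narrowly in replicates 1 and 2. ATG7 rose in KO1 by 0.90 (SE 0.14, adjusted p = 0.0014) and was lower in KO2 than in KO1, with a difference of -0.60 (SE 0.14, adjusted p = 0.0115). Neighbouring genes had a median of 0.45 in KO1, and beyond them ATG7 differed by 0.38 in KO1 (adjusted p = 0.0723) and -0.22 between the clones (adjusted p = 0.285). ATG5 (chr6:106045423-106325791, minus strand), which is joined to ATG12, had 9.15, 8.09 and 8.39 FPKM in KO1, 5.16, 5.57 and 5.95 FPKM in KO2, and 11.5, 10.3 and 8.15 FPKM in Vector. KO2 lay below all other libraries. ATG5 differed by -0.73 (SE 0.13, adjusted p = 0.00271) in KO2 and -0.54 (SE 0.13, adjusted p = 0.0105) between the clones. Its neighbours had a median of -0.49 in KO2, and beyond them the differences were -0.24 in KO2 (adjusted p = 0.0623) and -0.17 between the clones (adjusted p = 0.161). ATG16L1, which places the ATG12 and ATG5 conjugate on the membrane, averaged 7.17 ± 0.485 FPKM in KO1, 5.5 ± 0.654 FPKM in KO2 and 5.26 ± 0.243 FPKM in Vector (SD, n = 3 each). It rose in KO1 by 0.38 (SE 0.10, adjusted p = 0.0191), a call lost without Vector replicate 2 or without KO1 replicate 1 or 2, at an adjusted p of up to 0.0769, and beyond its neighbours, at an adjusted p of 0.286. Between the clones ATG16L1 differed by -0.33 (SE 0.10, adjusted p = 0.0361), a call that 6 of the 9 fits leaving out 1 library lost, all but those without Vector replicate 1, Vector replicate 3 or KO2 replicate 2, with an adjusted p of up to 0.126. ATG3, which transfers LC3 to lipid, and ATG12 passed in none of the comparisons, and averaged 5.52 ± 0.282 FPKM in KO1, 6.62 ± 1.03 FPKM in KO2 and 5.71 ± 1.12 FPKM in Vector (SD, n = 3 each) for ATG3 and 9.85 ± 0.314 FPKM in KO1, 7.76 ± 0.15 FPKM in KO2 and 8.87 ± 2.0 FPKM in Vector (SD, n = 3 each) for ATG12.

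MAP1LC3B, GABARAPL2 and the cargo receptor SQSTM1 fell in KO2, and GABARAPL1 rose in KO1. MAP1LC3B (chr16:87383995-87404779, plus strand), the LC3 protein used as a marker of autophagosomes, had 50, 45.7 and 48.7 FPKM in KO1, 23.2, 23.1 and 21 FPKM in KO2, and 66.8, 59.1 and 47.3 FPKM in Vector. KO2 lay far below both other groups, and KO1 overlapped Vector. MAP1LC3B differed by -1.31 (SE 0.13, adjusted p = 0.000122) in KO2 and -1.07 (SE 0.13, adjusted p = 0.000378) between the clones, and kept both calls whichever library was left out. Its neighbours had a median of -0.10 in KO2. MAP1LC3B2, a near copy to which some reads may be assigned, had 6.35, 5.64 and 5.69 FPKM in KO1, 2.43, 2.87 and 2.80 FPKM in KO2, and 5.95, 5.98 and 6.67 FPKM in Vector. SQSTM1 (chr5:179806398-179838078, plus strand), the p62 receptor that carries ubiquitin-tagged cargo into autophagosomes, had 86.2, 81 and 75.8 FPKM in KO1, 53, 48.5 and 45.8 FPKM in KO2, and 75.3, 68.1 and 103 FPKM in Vector. KO2 lay below all other libraries, and KO1 overlapped Vector, with a difference of 0.00 (95% interval -0.35 to 0.34). SQSTM1 differed by -0.71 (SE 0.15, adjusted p = 0.00842) in KO2 and -0.71 (SE 0.15, adjusted p = 0.00763) between the clones, and kept both calls whichever library was left out. Genes near SQSTM1 had a median of 0.17 in KO2, opposite in sign.

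GABARAPL1 (chr12:10212458-10223130, plus strand), a GABARAP relative, had 30.1, 29.2 and 27.7 FPKM in KO1, 19.9, 21.1 and 13.9 FPKM in KO2, and 18.6, 16.6 and 18 FPKM in Vector. KO1 lay above all other libraries, and KO2 overlapped Vector. GABARAPL1 rose in KO1 by 0.68 (SE 0.15, adjusted p = 0.00661) and was lower in KO2 than in KO1, with a difference of -0.66 (SE 0.15, adjusted p = 0.00858). GABARAPL2, another relative, averaged 15.1 ± 1.22 FPKM in KO1, 12.3 ± 2.6 FPKM in KO2 and 21.6 ± 4.52 FPKM in Vector (SD, n = 3 each). It fell in KO2 by 0.77 on the log2 scale (SE 0.18, adjusted p = 0.013), and both clones lay below Vector without overlap. Beyond its neighbours, whose median was -0.43 in KO2, GABARAPL2 differed by -0.35 (adjusted p = 0.234). GABARAP itself was counted in only 8 to 33 reads a library and was not tested, and 55.7% of its exon length is shared with other annotated genes, AC120057.2 and AC120057.3.

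**Figure D4:**
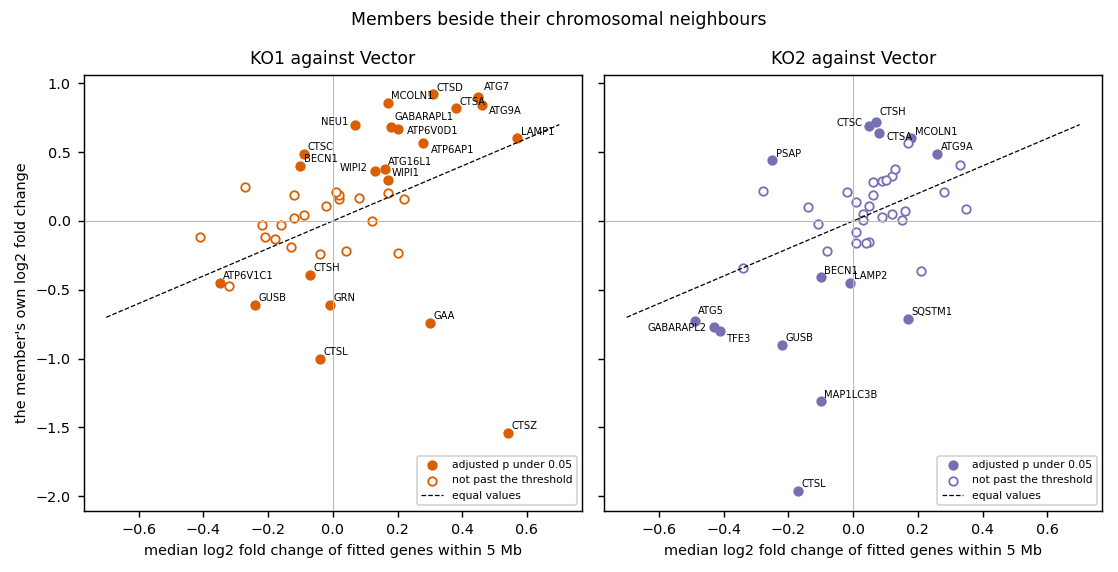
Log2 fold change of each fitted gene (vertical axis) beside the median log2 fold change of fitted genes that start within 5 Mb of it (horizontal axis), for KO1 on the left and KO2 on the right, with the dashed line at equal values. LAMP1 and ATP6V1C1 lie close to the line in KO1, whereas CTSZ in KO1 and MAP1LC3B, CTSL and SQSTM1 in KO2 lie far below it.

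The plot against chromosomal neighbours sets each gene beside the region in which it lies. With the neighbours' median subtracted, 11 genes were called higher and 5 lower in KO1, 7 higher and 8 lower in KO2, and 4 higher and 11 lower between the clones. Of all fitted genes 29.2%, 26.1% and 28.2% were then called. Of the 56 calls over the 3 comparisons, 20 were lost by this subtraction and none changed sign.

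The 8 genes with a CACGTG core in the promoter window were set beside the 26 fitted genes whose window lacked it. In KO1 6 of the 8 rose (ATP6V0D1, CTSA, CTSD, LAMP1, MCOLN1 and NEU1), 1 fell (GAA) and 1 was not called (ATG3), with a median of 0.69. LAMP1 and CTSA lost their calls beyond their chromosomal neighbours, as given above. Of the 26 without the core, 9 rose and 5 fell in KO1, with a median of 0.16. In KO2 2 of the 8 rose and none fell, with a median of 0.25, and 3 of the 26 rose and 8 fell, with a median of 0.00. Between the clones none of the 8 was higher and 3 were lower in KO2, with a median of -0.30, and of the 26 2 were higher and 10 lower, with a median of -0.29. At limma's unadjusted p under 0.05, 4 of the 8 were higher and none lower in KO2 than in Vector, and 1 was higher in KO2 than in KO1. By limma-voom 3 of the 8 were higher and none lower in KO2 than in Vector, and 1 was higher in KO2 than in KO1. When Vector replicate 3 and KO2 replicate 3 were left out, 6 of the 8 rose and 1 fell in KO1, and 4 rose and none fell in KO2, while among the 26 others, 12 rose and 8 fell in KO1, and 8 rose and 9 fell in KO2. Between the clones, without these libraries, 1 of the 8 was higher and 4 lower, and 6 of the 26 were higher and 16 lower. The share of all fitted genes called was then 56.8% in KO1, 49.5% in KO2 and 47.7% between the clones. Across all fitted genes with a promoter in the set, 20.8% of 1258 genes with the core rose in KO1, against 20.5% of 8599 genes without it. In KO2 10.9% of genes with the core rose, against 14.4% of those without. For TCACGTGA the shares were 22.1% of 226 genes with it and 20.5% of those without in KO1, and 8.41% and 14.1% in KO2. These are descriptions of the letters in a short window, and no test was made of them.

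Other genes of the same pathways were counted in the same way. Of 196 further genes in 7 lists, 173 were fitted. In KO1 22 rose and 44 fell (38.2%, beside 34.1% of all fitted genes, median -0.04). In KO2 17 rose and 34 fell (29.5%, beside 27.9%, median -0.07). Between the clones 36 were higher and 28 lower in KO2 (37.0%, beside 30.9%, median -0.01). With Vector replicate 3 and KO2 replicate 3 left out, 54 rose and 62 fell in KO1, and 48 rose and 55 fell in KO2. Between the clones 55 were then higher and 54 lower. The shares of all fitted genes called in that fit were 56.8%, 49.5% and 47.7%. The counts by list are with all libraries. Of 42 other hydrolases 3 rose and 10 fell in KO1, and 7 rose and 9 fell in KO2. Of 29 other membrane and cofactor proteins 5 rose and 10 fell in KO1, and 2 rose and 5 fell in KO2. Of 16 other pump subunits 4 rose and 3 fell in KO1, and 1 rose and 4 fell in KO2. Of 25 nutrient-sensing genes 4 rose and 3 fell in KO1, and 1 rose and 6 fell in KO2. Of 26 other autophagy genes 3 rose and 8 fell in KO1, and 3 rose and 4 fell in KO2. Of 16 cargo receptors and mitophagy genes none rose (1 at limma's unadjusted p under 0.05, none by limma-voom) and 7 fell in KO1, and 1 rose and 4 fell in KO2. Of 19 fusion genes 3 rose and 3 fell in KO1, and 2 rose and 2 fell in KO2.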

How the data were processed

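RNA from 9 libraries of H1299 cells was isolated with TRIzol and made into NEBNext Ultra libraries for an Illumina NovaSeq instrument, per the labels' protocols. The authors deposited 1 table of FPKM per gene for all libraries. The submitters' processing notes name CASAVA 1.6, HISAT2 2.0.5, featureCounts 1.5.0-p3 and hg38, and the strand setting is not given in the sources used here. Coordinates are those of GENCODE 29, which holds each of the 58735 identifiers. FPKM multiplied by exon length gave whole reads (within 0.02 reads) for 100.0% of values in every library, and these recovered reads were used for limma-voom only.

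From the deposited FPKM, log2(FPKM + 1) was fitted with limma 3.58.1 in R 4.3.3, with trended variances and group as the only term, over 16426 genes averaging at least 0.5 FPKM in the 9 libraries. The p-values were adjusted by Benjamini-Hochberg over all of them, and 0.05 was the threshold. The fit was also run on simulated reads, in which few genes changed and no library stood apart. That run does not show how the fit performs on these libraries. All 20 alternatives run are covered in the closing section.

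The 45 genes and the lists of other genes were chosen with earlier results of these data known. All 9 values are printed for LAMP1, CTSD, ATP6V1A, TFEB, TFE3, MCOLN1, SQSTM1 and MAP1LC3B. They are also printed for up to 3 called genes in each direction per role and clone by smallest p, and for the 5 smallest p between the clones. GAA was added after its values were seen. Other pathway genes are named by the smallest p, up to 2 in each direction per list and clone, and only some of these are described. No sample was left out, and GABARAP was the only 1 of the 45 genes not fitted.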

Additional observations from a re-analysis of the deposited data

Results flagged for a closer look

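The effect of knockout on a gene was treated as different between the clones where limma's test of KO2 against KO1 passed, which it did for 19 of the 44 genes fitted, beside 30.9% of all fitted genes. All differences here are log2(FPKM + 1) in KO2 minus KO1. Among the proteases and other hydrolases, CTSZ differed by 1.17, CTSH by 1.11, CTSL by -0.96 and NEU1 by -0.56. PSAP, the saposin precursor, differed by 0.47, LAMP1, the membrane glycoprotein, by -0.60 and TFE3, the transcription factor, by -0.68. Of the proton pump subunits ATP6V1C1 differed by 0.66, ATP6V1A by 0.51, ATP6V1H by -0.59 and ATP6V0D1 by -0.36. The autophagy genes that passed were all lower in KO2, and the difference was -1.07 for MAP1LC3B, -0.82 for BECN1, -0.71 for SQSTM1, -0.66 for GABARAPL1, -0.60 for ATG7, -0.54 for ATG5, -0.46 for WIPI1 and -0.33 for ATG16L1. In every library of KO2 CTSH and CTSZ were higher, and BECN1, MAP1LC3B and LAMP1 lower, than in every library of KO1.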

How the results depend on the processing

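The 56 calls over the 3 comparisons were recomputed under 20 alternatives. Of the resulting values 971 kept the call, 146 lost it and none changed sign. Another pseudocount (0.1), a constant in place of a trended prior variance, library weights and omitting replicate 3 of Vector and of KO2 lost no call. Fitting only genes averaging at least 2 FPKM kept all 53 calls that it could recompute, and CTSH was not fitted there. Limma-voom lost 1 call, fitting the 2 groups alone lost 8, no filter and equal sums lost 9 each, and subtracting the neighbours' median lost 20. In KO1 9 of 22 calls, in KO2 7 of 15 and between the clones 8 of 19 held under every alternative. With library weights 37, 32 and 34 genes were called for KO1, for KO2 and between the clones, beside 65.6%, 61.3% and 59.4% of all fitted genes. With the 2 groups alone 9 were called for KO2 against Vector, beside 18%. Without Vector replicate 3 and KO2 replicate 3, 27 were called in KO2 against Vector and 33 in KO2 against KO1, beside 49.5% and 47.7%. Leaving out 1 library at a time gave 15 to 29 called in KO1, 10 to 23 in KO2 and 13 to 31 between the clones, with the highest number each time without Vector replicate 3. The share of all fitted genes called moved too, over 22.6% to 44.8% in KO1, 19.5% to 39.8% in KO2 and 20.3% to 41.1% between the clones. The cause of these shifts was not tested. Deviations of same-numbered libraries from their group means correlated between -0.202 and 0.142, and those of differently numbered libraries of different groups between -0.261 and 0.251. These values gave no sign that the replicate numbers pair the libraries, but with 3 libraries per group they cannot exclude it. With the number as a replicate block 17, 14 and 17 genes were called, beside 29.9%, 24.1% and 27% of all fitted genes, and 9 of the 56 calls were lost. The low reads of TFEB, CTSH and GABARAP limit what could be detected for them.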

Other observations

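Of the lysosomal genes outside the 45, GALC (chr14:87837820-87993665, minus strand), the enzyme that removes galactose from galactosylceramide, had no read in any of the 6 knockout libraries, against 1168, 1146 and 960 reads in Vector (10.4, 9.92 and 8 FPKM). Against a floor of 3 reads per library it was at least 364-fold lower in either clone. Over all genes 18 were listed at 0 in all 6 knockout libraries and at 1 FPKM or more in every Vector library, of which 7 are protein-coding: RNLS, LAYN, GALC, ZNF486, PXDN, ZNF711 and NXF2. The 18 genes were picked after their values were seen. They include the short genes RNA5SP162, with 1, 1 and 2 reads in Vector, and RNU6-29P, with 2, 3 and 3. For genes counted so rarely, 0 reads in the knockout libraries does not show a loss. The 5 other fitted genes that start within 1 Mb of GALC were also tested with limma. In KO1 all 5 fell, with a difference of -0.64 for SPATA7, -0.63 for PTPN21, -0.97 for ZC3H14, -0.41 for EML5 and -1.47 for TTC8. In KO2 PTPN21, ZC3H14 and TTC8 fell, with differences of -0.84, -0.49 and -0.70, and SPATA7 (-0.14, adjusted p = 0.489) and EML5 (-0.12, adjusted p = 0.501) did not pass.

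NPC1 and LAMP3, both proteins of the lysosomal membrane, fell in both clones. NPC1, which moves cholesterol out of lysosomes, had 9.74, 10.1 and 9.76 FPKM in KO1, 5.57, 5.71 and 6.25 FPKM in KO2, and 14.5, 15.5 and 17.7 FPKM in Vector. LAMP3, a membrane protein related to LAMP1, had 0.443, 0.483 and 0.558 FPKM in KO1, 1.28, 0.994 and 1.02 FPKM in KO2, and 4.90, 4.49 and 4.07 FPKM in Vector. In limma's test NPC1 differed by -1.30 in KO2 (adjusted p = 2.47e-05), and LAMP3 by -1.87 in KO1 (adjusted p = 3.33e-06) and -1.39 in KO2 (adjusted p = 2.76e-05). Every knockout library lay below every Vector library for both genes.

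SESN2, a leucine sensor that restrains mTORC1, had 107, 112 and 105 FPKM in KO1, 20.2, 20.7 and 22.1 FPKM in KO2, and 35.4, 33.9 and 52.6 FPKM in Vector. It rose in KO1 by 1.41 (limma adjusted p = 0.000173) and fell in KO2 by 0.89 on the log2 scale (adjusted p = 0.00301), and KO2 was below KO1, with a difference of -2.31. RRAGD, a Rag GTPase that TFEB family factors are known to raise, had 3.16, 3.23 and 3.23 FPKM in KO1, 4.94, 4.70 and 7 FPKM in KO2, and 12.6, 10.9 and 10.8 FPKM in Vector. ULK2, the relative of ULK1, had 0.0446, 0.0312 and 0.0721 FPKM in KO1, 0.391, 0.317 and 0.452 FPKM in KO2, and 1.68, 1.66 and 1.94 FPKM in Vector. RRAGD and ULK2 were lower in every knockout library than in every Vector library. TP53INP1, a p53 target that binds LC3, had 4.25, 4.11 and 4.47 FPKM in KO1, 14.1, 14.4 and 11.8 FPKM in KO2, and 8.64, 8.89 and 7.11 FPKM in Vector. It fell in KO1 by 0.80 on the log2 scale (limma adjusted p = 0.000778) and rose in KO2 by 0.65 (adjusted p = 0.0031).

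Within the pump, ATP6V0B, a V0 subunit outside the 45 genes, had 32.5, 30.2 and 29.1 FPKM in KO1, 18.6, 15.7 and 11.8 FPKM in KO2, and 12.8, 11.2 and 15.8 FPKM in Vector. It rose in KO1 by 1.16 (limma adjusted p = 0.000909), and KO2 overlapped Vector. ATP6AP2, the other accessory subunit, had 4.08, 3.81 and 3.89 FPKM in KO1, 3.95, 3.90 and 3.30 FPKM in KO2, and 9.39, 7.45 and 5.63 FPKM in Vector. ATP6AP2 fell in KO1 by 0.76 on the log2 scale (adjusted p = 0.00486), while ATP6AP1 rose there. In KO2 the fall of ATP6AP2 was 0.83 on the log2 scale, and with the neighbours' median subtracted that call was lost (adjusted p = 0.0897).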
